A study of Mus musculus with 6 samples.

Results

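The cells described here are 2362 barcodes of microglial expression that carried few unique molecular identifiers (UMIs, the counted molecules) and at least 1 UMI of Ddit4. They were drawn from a single-cell matrix of 40411 barcodes and 105560763 UMIs. Of those barcodes, 9524 held 500 to 1000 UMIs, 9160 of these had over 200 genes and under 5% of UMIs on mitochondrial genes, 8837 had over 3% of UMIs on the 6 genes Cst3, C1qa, C1qb, C1qc, P2ry12 and Tmem119, and 8123 of these had no Spp1. Members were the 2362 of the 8123 with Ddit4, or 29.1% (95% exact binomial interval 28.1 to 30.1%). They were compared with the 5761 Ddit4-negative barcodes of the same range and with 22479 deep microglial barcodes, those of 2000 UMIs or more with any Spp1. The members were thus chosen by measured values, the UMI total, the gene count, the mitochondrial share, the 6 microglial genes, Ddit4 and Spp1. The levels of these are a description only.

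The study profiled CD45+ immune cells, sorted after a Percoll gradient from the right brain hemisphere of female SCID mice that bore intracranial tumors of the human glioma line U87. Each mouse, 6 to 8 weeks old by the sample labels, received 50000 tumor cells. In 3 mice the U87 cells overexpressed IL-33 and the brain was collected at 3 weeks, and in the other 3 the cells carried the empty pcDNA vector and the brain was collected at 6 weeks. SCID mice lack mature T and B cells, and U87 is a single line, which limits both groups as a model. Libraries were made by droplet capture of 3′ ends, with 3 libraries per sequencing kit. The matrix marks 6 libraries by a number after each barcode (suffix 1 to 6) that neither the sample labels nor the matrix ties to a sample, so the 2 tumor groups were not compared, the matrix counts as 1 pooled sample, and no test was run. Intervals are 95%, exact, and cover counting error only. They treat each barcode as separate, also where several libraries hold its sequence (below). The lowest and highest suffix are given as the spread.

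Ddit4 (REDD1) is a small protein that restrains the growth kinase mTORC1 and is induced by glucocorticoids, low oxygen and energy stress. Zbtb16, Fkbp5, Tsc22d3 (GILZ), Klf9 and Per1 are well-known glucocorticoid-induced genes in many cell types, and Pik3ip1 encodes an inhibitor of PI3 kinase that acts in the same growth pathway. Microglia are the resident macrophages of the brain, known by P2ry12 and Tmem119 and by abundant complement C1q.

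Before any level is read, the barcode sequences matter, because the libraries shared them. Without their suffix the 40411 barcodes reduced to 29579 distinct sequences, and 3890 of these occurred in more than 1 library. Of the 2362 members, 2326 (98.5%) had a sequence that at least 1 other library also held, and 2195 (92.9%) had a sequence held by 3 or more libraries. Only 36 members (1.52%) had a sequence of 1 library, 35 of them in suffix 2. The Ddit4-negative barcodes of the same range were shared nearly as often, with 4773 of 5761 (82.9%) in 3 or more libraries and 648 (11.2%) in 1. Among deep barcodes the proportions were turned around, with 818 of 22479 (3.64%) in 3 or more libraries and 20998 (93.4%) in 1.

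**Figure D1:**
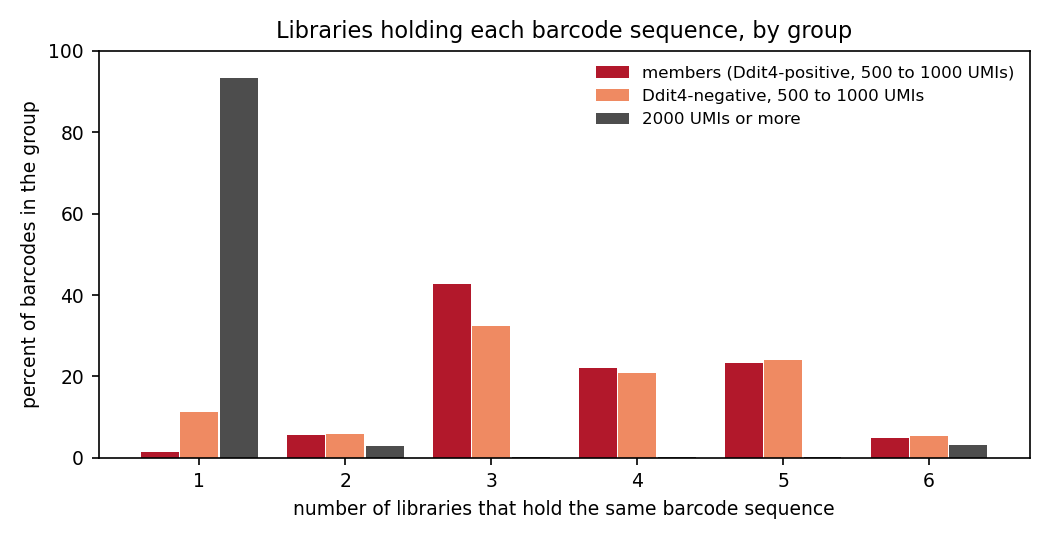
Percent of the barcodes of each group (vertical axis) by the number of libraries that hold the same barcode sequence (horizontal axis). Bars of one group sum to 100%: 93.4% of the deep barcodes stand at 1 library, against 1.52% of the members and 11.2% of the Ddit4-negative barcodes.

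In all, 3229 sequences occurred in 3 or more libraries, and 3191 of them in just 5 combinations of suffixes. These were suffixes 1, 2 and 5 (1260 sequences), all but suffix 3 (778), all 6 suffixes (490), all but 3 and 4 (353), and all but 3 and 6 (310). Of the sequences, 1945 were in 4 or more libraries so that, with 3 libraries per group, at least these occurred in both tumor groups. The UMI totals of one sequence kept a fixed proportion between libraries: across 3225 sequences suffix 2 held 1.32 times the UMIs of suffix 1, with a 5th percentile of 1.24 and a 95th of 1.42. In each of the 15 pairs of libraries the spread of this ratio, read from its 5th and 95th percentiles, was 0.885 to 1.06 times the spread that counting alone gives. Sequences in exactly 2 libraries were few, 15 to 203 per pair. In suffixes 1 and 2 (203 sequences) their median ratio was also 1.32, and in the other pairs the medians lay further apart. The spread for sequences in exactly 2 libraries was 7.93 to 48.7 times that of counting alone. By this measure the barcodes that share a sequence across 3 or more libraries differed in UMI total by no more than sampling noise around a constant factor, so they are also counted below as 1 barcode per sequence, and a direction seen in 6 of 6 suffixes is not 6 separate observations.

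**Figure D2:**
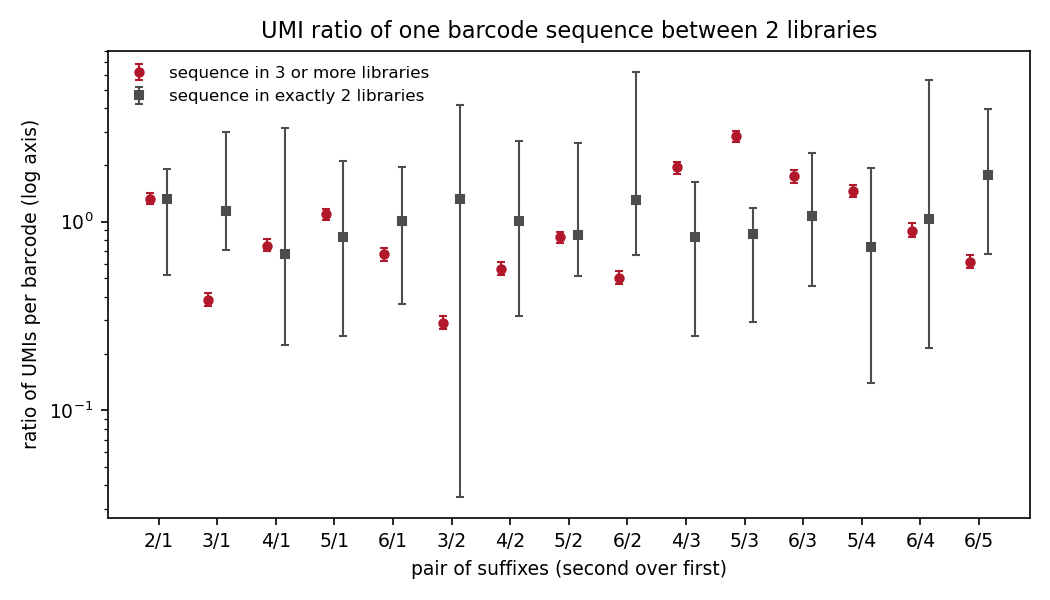
Ratio of the UMIs of one barcode sequence between 2 libraries (vertical log axis) for the 15 pairs of suffixes (horizontal axis). Points are medians and bars run from the 5th to the 95th percentile over sequences: for sequences in 3 or more libraries the bars are narrow in each pair, and for sequences in exactly 2 they are wide.

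The pattern is shown by 3 such sequences, each the one with the median UMI total among the sequences with a member in the 3 commonest combinations. They are barcodes of the gel beads and not genome sequence.
Suffixes 1, 2 and 5: tcaggatagaattgtg
All but suffix 3: gcgcagtcagcatact
All 6 suffixes: gacctggtccgtaggc
The first held 616, 861 and 674 UMIs in suffixes 1, 2 and 5, and only the 861 UMIs of suffix 2 included a Ddit4 UMI. The second held 923, 1208, 665, 1009 and 635 UMIs in suffixes 1, 2, 4, 5 and 6, with Ddit4 UMIs of 0, 3, 1, 1 and 1. Its barcodes in suffixes 4 and 6 were members, and those of suffixes 2 and 5 had Ddit4 but over 1000 UMIs. The third held 921 UMIs in suffix 3, where it had its single Ddit4 UMI and was a member, and 1002 to 1977 UMIs elsewhere. The limits of the rule thus cut through one sequence: of 1246 shared sequences with a member, 849 (68.1%) were a Ddit4-negative low-UMI barcode in another library.

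Counted once each, the 2362 members were 1375 sequences, of which 691 were a member in 1 library, 423 in 2, 222 in 3, 36 in 4 and 3 in 5. With 1 barcode kept per sequence within each group, 1375 members and 3189 Ddit4-negative barcodes, the share with Ddit4 was 30.1%. A sequence found in both groups was kept in each, so this is not a share of distinct sequences. The label of low RNA describes a barcode within its library. Summed over libraries, the sequences that held a member had a median of 2902 UMIs (quartiles 2064 and 4050), and the 3229 shared sequences 3640 (2556 and 5321). Microglial barcodes of sequences in 1 library had a median of 3161 (2495 and 3961). Within a library the members had a median of 744 UMIs and 450 genes, the Ddit4-negative barcodes 747 and 446, and the deep barcodes 3313 and 1364. How the sequences came to be shared was not tested. The main comparisons below are repeated within sequences in 3 or more libraries.

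The members carried the microglial genes outside the rule. Their summed level of 20 such genes was 51824 CPM, UMIs of a gene per 1000000 UMIs of the group (47606 to 52552 over suffixes), against 51951 in Ddit4-negative and 47964 in deep barcodes. None of the 20 was at 0. Of the 19 with 50 CPM or more, 3 were 2-fold or more below the deep level over all barcodes, and lower in every suffix, beside 147 of 3148 (4.67%) over all genes. These were Cx3cr1, the fractalkine receptor (877 against 1850 CPM), Fcrls (171 against 352) and Sall1, a transcription factor of microglial identity (25.02 against 80.7). Within sequences in 3 or more libraries none of 18 was lower by this rule, beside 36 of 3084 over all genes. There Cx3cr1, Fcrls and Sall1 stood at 887 against 1047, 175 against 262 and 24.9 against 45.3 CPM. Markers of other cells were low, with 5 of 10 monocyte, 6 of 10 border macrophage, 9 of 10 NK cell, 6 of 10 granulocyte, 9 of 10 lymphocyte and 5 of 5 red cell markers at 0. Summed, the monocyte markers stood at 61.4 CPM in members and 79.2 in deep barcodes, the border macrophage markers at 132 and 118, the granulocyte markers at 182 and 576, and the NK markers at 3.41 and 203. The dendritic cell list stood at 209 and 394, mostly Fscn1 (177 CPM in members), and the lymphocyte list at 207 and 323, where Ighm alone was detected. Choroid plexus markers stood at 163 and 219 CPM, unevenly: Ttr, its most abundant transcript, was 2928 CPM in the members of suffix 3 and 17.9 to 248.7 in the other suffixes. Slc1a3, a glial glutamate transporter, was 283 CPM in members and 111 in deep barcodes, and 8 of the 13 neuron, glia and vessel markers were at 0. The part of these other cells in the results was not tested.

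Most members rested on a single Ddit4 molecule. Exactly 1 Ddit4 UMI was seen in 1569 members (66.4%), 2 in 528, 3 in 173 and 4 to 8 in 92. Since 1 UMI is 1344 CPM at the members' median depth, their Ddit4 level of 2021 CPM (suffixes 1907 to 2090) follows from the rule. Among barcodes just inside and outside the upper limit, members of over 900 UMIs had Ddit4 at 1638 CPM and Zbtb16 at 89.5, and Ddit4-positive barcodes of over 1000 and up to 1100 UMIs had 1505 and 81.8. At the lower limit on microglial genes, 31 members had 3 to 4% of UMIs on the 6 genes and 12 otherwise fitting barcodes had 2 to 3%. As background, choroid plexus-like barcodes of 500 to 1000 UMIs (median 713) had Ddit4 in 0 of 97, with an interval of up to 3.73%. NK-like barcodes of that range (median 919) had it in 0 of 13 (up to 24.7%). At any UMI count these were 5 of 195 (2.56%) and 9 of 112 (8.04%). Of all 323 passing barcodes of 500 to 1000 UMIs with 3% or less on the 6 genes, 33 had Ddit4. Microglial barcodes of that range without Spp1 had it in 29.1%, and in 5.26% where 1 library held the sequence.

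Beside Ddit4-negative barcodes of the same UMI range the members differed in few genes, and the counts depended on the setting. Of 3063 genes with 50 CPM or more in either group, 99.1% lay within 1.5-fold. In all, 4 (0.131%) were higher and 12 (0.392%) lower by 1.5-fold or more over all barcodes, with one direction in all 6 suffixes. Higher were Trit1, a tRNA-modifying enzyme (80.7 against 41.2 CPM), the histone gene Hist4h4 (75.6 against 42.1), Zfp62 (55.7 against 34.0) and Thap7 (52.3 against 34.7). These 4 rest on 92 to 142 UMIs in members. They were under 50 CPM in Ddit4-negative barcodes and met the minimum through the members alone, so only a higher call was possible. Without suffix 1 the counts were 10 higher and 21 lower, without suffix 5 the higher count was 15, and with at least 2 Ddit4 UMIs required the counts were 19 and 41. Among the lower were the chemokine Ccl12 (248 against 629 CPM, a ratio of 0.395, interval 0.356 to 0.437), the cytokine Il1b (54.6 against 97.5), Lgals1 (35.3 against 67.2), Ecscr (22.7 against 50.3), the histone demethylase Kdm6b (92.1 against 155), the glycolytic enzyme Hk2 (54.6 against 84.7) and Slc15a3, Nfia, Fbrsl1, Uso1 and mt-Nd5. The 13 mitochondrial genes, whose share the rule limits to under 5% in both groups, are given as a description. Together they stood at 11986 CPM in members (10727 to 14183 over suffixes) against 15571 (14630 to 17604). With Ddit4, the 6 genes and the mitochondrial genes left out of the denominator, 110 of 110 named-gene ratios stayed within their counting interval. The part of mitochondrial RNA in these results was not tested otherwise. Ccl12 ranged from 221 to 361 CPM over the suffixes in members and from 517 to 729 in Ddit4-negative barcodes, which did not overlap.

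Of the other marker genes of the label, Zbtb16 and Plet1os did not separate the 2 groups, and Pik3ip1 was slightly higher in members. Zbtb16 was 86.9, 87.1, 95.1, 74.6, 98.0 and 101 CPM in the members of suffixes 1 to 6, and 100, 93.7, 63.9, 84.6, 91.8 and 65.3 in the Ddit4-negative barcodes. The ranges overlapped and the pooled levels, 90.4 and 88.7, had a ratio of 1.02 (0.842 to 1.23). Plet1os, an antisense transcript of Plet1, was 51.2 and 48.2 CPM, a ratio of 1.06 (0.820 to 1.37). Plet1, the gene it overlaps, was 125 and 115 CPM. Zbtb16 did not climb with Ddit4 either, at 89.4, 86.5 and 104 CPM in members with 1, 2 and 3 or more Ddit4 UMIs. Pik3ip1 was 383 against 295 CPM, a ratio of 1.30 (1.18 to 1.43), with 228 to 452 in the suffixes of the members and 174 to 339 in the others, so that the ranges overlapped, and it was higher in members in 6 of 6 suffixes.

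No gene of the glucocorticoid list passed the 1.5-fold mark. Tsc22d3 was 1172 against 892 CPM (ratio 1.31, 1.25 to 1.39), Fkbp5, a chaperone partner of the glucocorticoid receptor, 241 against 184 (1.31, 1.16 to 1.47), Klf9 134 against 102 (1.32, 1.12 to 1.55) and Sult1a1 467 against 370 (1.26, 1.16 to 1.37). Each was higher in 6 of 6 suffixes. Of the 18 genes of the glucocorticoid list at 50 CPM or more, Ddit4 aside, 15 had a ratio above 1 and none passed 1.5-fold, with a median log2 ratio of 0.17 beside 0.01 over all genes. Of 18 immediate early genes 13 were above 1, and none passed 1.5-fold, with a median log2 ratio of 0.12 beside the same 0.01. Of 11 cytokine and chemokine genes 2 were above 1, with Ccl12 and Il1b past the mark and a median log2 ratio of -0.35. In the other lists Hk2 alone passed.

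Restricted to sequences in 3 or more libraries (2195 members against 4773), the 2 groups drew closer still. There 99.6% of 3047 genes lay within 1.5-fold, with 3 higher and 4 lower. The Ccl12 ratio moved from 0.395 to 0.569 (250 against 439 CPM) and no longer had one direction in all suffixes. Tsc22d3 stood at 1.21, Fkbp5 at 1.199, Klf9 at 1.19 and Pik3ip1 at 1.18, and Zbtb16 at 0.923. The 36 members of 1-library sequences hold too few UMIs for a comparison of genes. Among such sequences the share with Ddit4 was 36 of 684, or 5.26% (3.71 to 7.21%), against 2195 of 6968, or 31.5% (30.4 to 32.6%), for sequences in 3 or more libraries. Suffix 2 held 35 of those 36, with 14.8% of its 237 such barcodes, and without it the share was 1 of 447 (0.224%, 0.00566 to 1.24%). The interval for sequences in 3 or more libraries counts one sequence again in each library. Between 1000 and 2000 UMIs the rule used no barcode, though a sequence there can be a member in another library. Of 3016 genes, 80 (2.65%) were higher and 132 (4.38%) lower by 1.5-fold or more with Ddit4 than without. Of these barcodes, 1182 of 1225 with Ddit4 and 2392 of 4824 without had a sequence in 3 or more libraries. Within shared sequences these counts were 7 and 7 of 2938.

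Against deep barcodes the members differed widely. Of 3148 genes, 121 (3.84%) were higher and 147 (4.67%) lower by 2-fold or more over all barcodes, with one direction in all 6 suffixes. With Ddit4 at 14.9 CPM (4.19 to 26.1 over suffixes) in deep barcodes, the other genes of the label were also far apart. Plet1os was 0.934 CPM there (ratio 54.8, 40.0 to 75.1), Zbtb16 2.16 (41.8, 33.6 to 52.0), Plet1 3.17 (39.5, 32.9 to 47.4) and Pik3ip1 18.7 (20.5, 18.7 to 22.4). Within sequences in 3 or more libraries the counts fell to 13 higher and 36 lower, and the ratios to 2.17 for Plet1os, 1.46 for Zbtb16, 1.18 for Plet1 and 1.98 for Pik3ip1. In the suffixes Zbtb16 ran from 74.6 to 101 CPM in members and from 0.661 to 4.33 in deep barcodes, far from overlapping. Also higher were Klf9 (134 against 8.56 CPM), Gpd1, a glycerol phosphate dehydrogenase (117 against 9.60), Sult1a1 (467 against 38.9), the junctional adhesion protein gene Jaml (106 against 12.1), Fkbp5 (241 against 27.8) and the phospholipase Pla2g7 (201 against 23.5). These distances were mostly lost within shared sequences, where the ratio was 2.36 for Gpd1, 1.77 for Sult1a1, 1.63 for Klf9, 1.58 for Fkbp5, 1.18 for Jaml (0.957 to 1.46) and 1.08 for Pla2g7 (0.931 to 1.25).

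By list, 7 of 18 glucocorticoid-response genes were higher and none lower (Tsc22d3, Fkbp5, Klf9, Zbtb16, Sult1a1, Cebpb and Ucp2), with a median log2 ratio of 0.64 beside 0.14 over all genes. Within sequences in 3 or more libraries 1 of 18 was (Tsc22d3), with a median of 0.44 beside 0.09. Over all barcodes Zbtb16, Klf9, Fkbp5 and Sult1a1 met the 50 CPM minimum in the members alone, so only a higher call was possible. Dusp1, the most abundant gene of the list, was 6529 against 3392 CPM, short of 2-fold. Of 10 FoxO targets 2 were higher (Pik3ip1 and Il7r), and among mTORC1 and Akt regulators Pik3ip1 and Pik3r1 of 12. Within shared sequences Txnip was the one FoxO target past 2-fold, and none of the 12 regulators passed. In the stress lists 1 of 11 genes of the integrated stress response was higher (Cebpg) and none lower, none of 7 p53 targets passed, and of 10 hypoxia and glycolysis genes only Hk2 did, at 54.6 against 178 CPM. Immediate early genes were split, with Fosb, Klf4 and Klf6 higher and Ier3 and Nr4a1 lower of 19. Of 12 chaperone genes 2 were lower, Dnajb1 (570 against 1366 CPM), whose direction turned within shared sequences, and Dnajb4 (89.8 against 213). No gene of the apoptosis and autophagy list passed, of 10. Within shared sequences no gene of the stress, immediate early, chaperone and apoptosis lists passed in either direction.

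Among inflammatory genes most that passed were lower. Of 14 cytokine and chemokine genes 8 were lower, namely Ccl2, Ccl7, Ccl12, Cxcl10, Cxcl2, Il1a, Il1b and Tnf, and 2 were higher, Ccl9 and Osm. Within shared sequences 4 of 13 were lower, Ccl12, Cxcl16, Il1b and Csf1, and none higher, and Ccl9 was level. Ccl12, a ligand of the monocyte receptor Ccr2, was 248 against 3721 CPM (0.0668, 0.0607 to 0.0733), with 2983 to 4763 in the deep barcodes of the suffixes. Ccl2, a like ligand, was 203 against 914, and Tnf 79.6 against 324. Within shared sequences Ccl12 was 250 against 833 CPM (0.300, 0.269 to 0.334), lower in 5 of 5 suffixes, while Ccl2, at 0.826, and Tnf, at 0.754, lay within 2-fold. The growth arrest ligand Gas6 was 14.2 against 154 CPM and Cd72 2.84 against 108. Of the lipid list, Apoe was the one gene past 2-fold, at 25850 against 11652 CPM, while the lipid receptor Trem2 was 1850 against 2064. Within shared sequences Apoe turned to 25573 against 53459 CPM, and 5 of 11 genes of the list were lower (Lpl, Lgals3, Cst7, Itgax and Axl). The members have Spp1 at 0 by the rule and these deep barcodes had it at 2539 CPM. Against the shared deep barcodes with Spp1 at 0, Apoe was 25573 against 38345 CPM (0.667, lower in 3 of 4 suffixes) and none of 8 genes of the list passed, so these 5 calls were lost. Of 22 lysosomal genes none passed 2-fold, with 19 above 1 and a median log2 ratio of 0.37 beside 0.14 over all genes. That median turned to -0.21 within shared sequences (0.09 over all genes). With the deep Spp1 at 0 it was -0.07 (0.08 over all genes). In the remaining pathway lists no gene was higher, and those lower were Itgam of 8 complement genes, H2-Aa of 9 MHC genes, Cxcl10 of 5 interferon-response genes and Son of 16 nuclear-retained RNAs and splicing factors, with none of 12 NF-kB feedback genes and none for the 1 cell cycle gene at 50 CPM. Within shared sequences H2-Aa, H2-Ab1 and Cd74 of 9 MHC genes and Ifi27l2a of 3 interferon-response genes were lower, and none of the other lists just named had a gene that passed. Of the marker lists of other cells Slc1a3 was higher, and Fscn1 (177 against 370 CPM), Ccl5 (3.41 against 99.5), S100a8 (2.27 against 161) and S100a9 (1.14 against 114) were lower. Within shared sequences S100a8 (2.43 against 166) was lower, as were Ttr (160 against 462) and Itgax (26.1 against 85.7), and the other 4 did not pass: Slc1a3 was 273 against 204 CPM, Fscn1 175 against 198, Ccl5 3.65 against 66.1 with 4 of 5 suffixes lower, and S100a9 1.22 against 129 with 2 of 5 lower. With the shared deep barcodes limited to Spp1 at 0, Ttr and Ccl5 were the marker genes lower, and S100a8 and Itgax no longer passed. Transcript length also moved with the comparison over all barcodes: 29.9% of the lower genes had a longest annotated transcript under 1000 bases, against 7.53% of all genes tested and 2.48% of the higher ones. Its part in the differences was not tested.

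**Figure D3:**
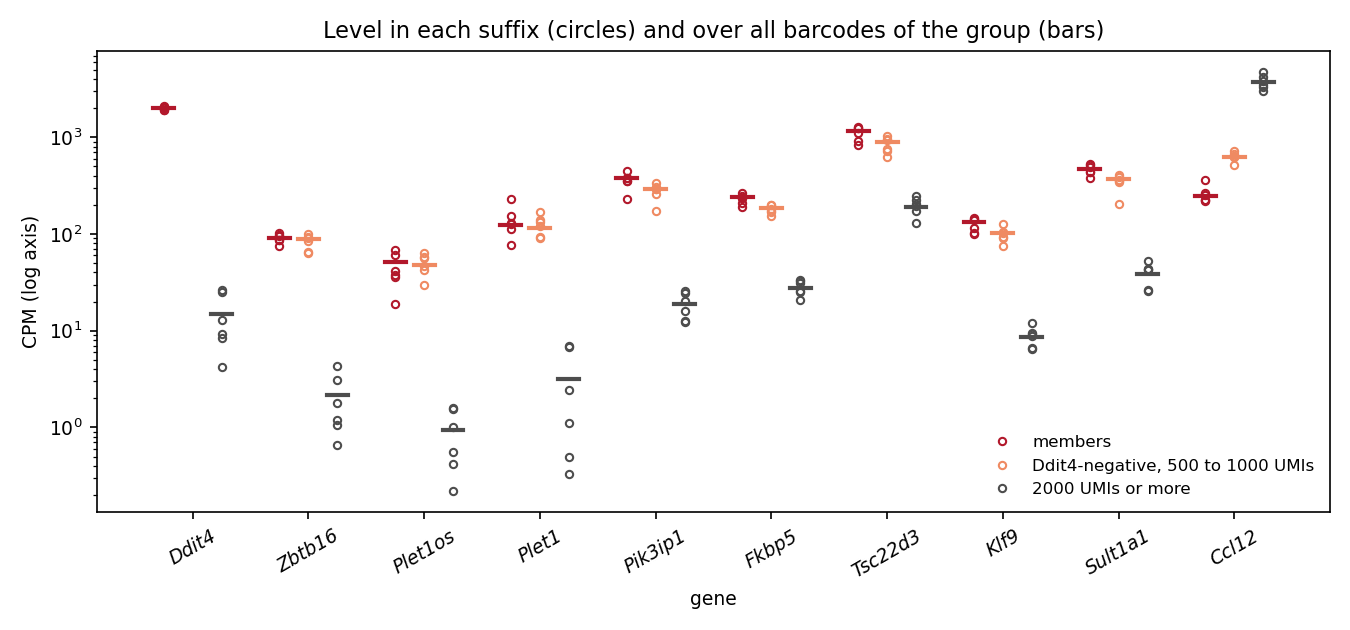
Level of 10 genes in CPM (vertical log axis) in members, in Ddit4-negative barcodes of the same UMI range and in deep barcodes. Circles are the 6 suffixes, which share barcode sequences in the 2 low-UMI groups, and bars the pooled level, with values under 0.1 drawn at 0.1 and Ddit4, at 0 by the rule, not drawn for the Ddit4-negative group: for Zbtb16 the low-UMI groups lie at 90.4 and 88.7 CPM and the deep barcodes at 2.16.

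At every depth examined the marker genes were higher in shared sequences. At 2000 to under 3000 UMIs, 599 microglial barcodes had a sequence in 3 or more libraries and 7273 a sequence in 1, with medians of 2309 and 2601 UMIs. Ddit4 was 385 CPM in the first (353 to 418; suffixes 325 to 495) and 5.40 in the second (4.40 to 6.57; suffixes 2.94 to 7.90). Zbtb16 was 71.9 against 0.428 CPM, Plet1os 28.9 against 0.321 and Pik3ip1 216 against 16.5. At 3000 UMIs or more, 219 shared barcodes had Ddit4 at 290 CPM and Zbtb16 at 45.5, and 13725 of 1 library 5.53 and 0.508. In the range of 2000 to under 3000 UMIs Fkbp5 was 162 against 27.9 CPM, Klf9 96.5 against 5.56 and Plet1 132 against 0.161. The split by number of libraries was made after the sharing was seen and used no gene.

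In that range 161 genes (5.2%) were higher and 185 (5.98%) lower by 2-fold or more with shared sequences, of 3095, over all barcodes and with one direction in the 5 suffixes with enough barcodes. Of 18 glucocorticoid-list genes 7 were higher, Tsc22d3 among them (628 against 245 CPM), and 1 was lower (Zfp36). Zbtb16, Klf9, Fkbp5 and Sult1a1 again met the 50 CPM minimum in the shared barcodes alone. The shared barcodes of this range were not all like the members: Apoe was 61403 against 5242 CPM, and Spp1, at 0 in members by the rule, 2913 against 63.0. Of the lists, 8 of 11 lipid genes, 8 of 22 lysosomal genes and 5 of 9 MHC genes were higher. Lower were 9 of 19 immediate early genes, 4 of 12 chaperone genes and 4 of 16 nuclear-retained RNAs and splicing factors. Of 13 cytokine and chemokine genes 4 were higher and 4 lower. P2ry12, the purinergic receptor, was 1548 against 4379 CPM, while members had 2415. Mitochondrial UMIs had a median of 1.52% against 1.04%.

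The reverse case gave lower levels at low depth. The 729 microglial barcodes of 500 to 1000 UMIs whose sequence 1 library held had Ddit4 at 105 CPM (79.9 to 136), Zbtb16 at 12.7 (5.10 to 26.1) and Pik3ip1 at 83.4, against 616, 95.2 and 325 CPM in 7623 shared barcodes of that range. Suffix 2 carried most of this: over the suffixes of the 729, Ddit4 ran from 0 to 332 CPM, Zbtb16 from 0 to 40.8 and Pik3ip1 from 0 to 209.8, each highest in suffix 2, and without it they were 2.63, 0 and 26.3. Ccl12 was 2103 CPM in them, lowest in suffix 2 at 1445, and 371 in the shared. These 729 differed from the 20998 deep barcodes of 1 library in 20 genes higher and 17 lower, of 3084. With both restricted to shared sequences, the members and 818 deep barcodes differed in 13 higher and 36 lower, of 3084. There Ddit4 was 1998 against 349 CPM, Zbtb16 89.9 against 61.8 (1.46, 1.15 to 1.84), Tsc22d3 1165 against 564, Pik3ip1 377 against 191 and Plet1 131 against 111. Plet1os, at 52.9 against 24.4 CPM, was the label gene other than Ddit4 that stayed past 2-fold. Of the 6 suffixes, 5 had enough deep barcodes for this comparison. With the shared deep barcodes limited to the 412 with Spp1 at 0, 11 genes were higher and 17 lower, of 3083, with 4 suffixes. Pik3ip1 was then past 2-fold (2.19, 1.87 to 2.58), and Plet1os (1.57), Zbtb16 (1.62) and Tsc22d3 (1.83) were short of it. None of the 18 glucocorticoid-list genes passed there (median log2 ratio 0.28), Pik3ip1 was the one FoxO target, and of the pathway lists Ccl12, Cd74 and Itgam were the genes lower. With the deep group restricted to 1-library sequences, 128 genes were higher and 154 lower.

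**Figure D4:**
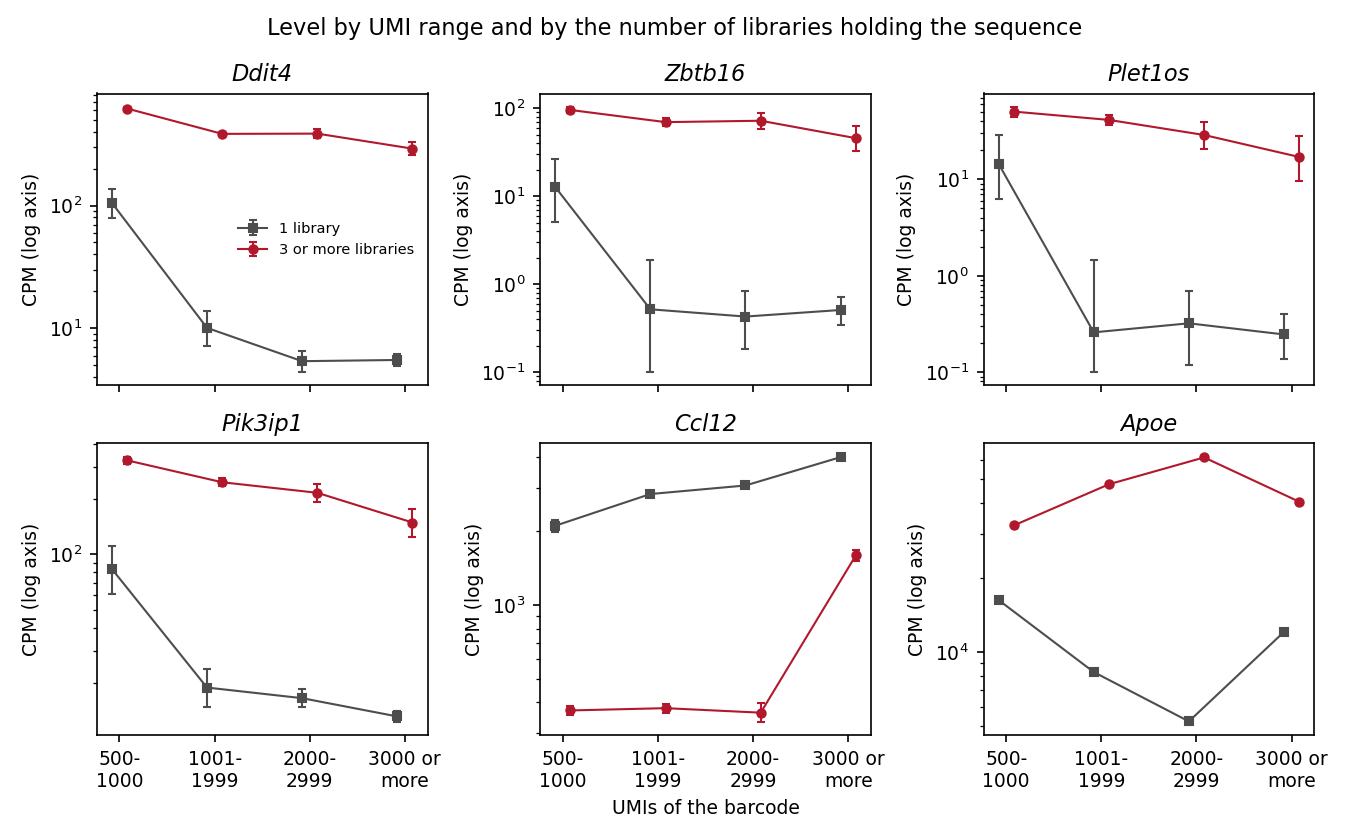
Level of 6 genes in CPM (vertical log axis) by the UMIs of the microglial barcode (horizontal axis), for sequences held by 1 library and by 3 or more. Bars are exact 95% Poisson intervals, drawn down to 0.1 CPM where they reach lower: in each UMI range the red points lie above the grey for Ddit4, Zbtb16, Plet1os, Pik3ip1 and Apoe, and below it for Ccl12.

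Across all microglial barcodes the share with Ddit4 fell with depth once each barcode was thinned to 500 UMIs. It was 24.9% at 500 to 750 UMIs (23.7 to 26.2%; 28.6% unthinned), 11.7% at over 1000 to 1500, 1.34% at 2000 to under 3000 and 0.410% at 5000 or more (0.212 to 0.714%; 4.47% unthinned). Shared sequences also thinned out with depth, from 7623 barcodes at 500 to 1000 UMIs to 219 at 3000 or more. The members' share of the low-UMI barcodes without Spp1 was 30.9, 33.5, 23.6, 22.6, 32.3 and 22.0% in suffixes 1 to 6. Suffixes 1, 2 and 5, the ones that hold nearly every shared sequence, were the 3 high ones.

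The promoter of Ddit4 was searched for short motifs of factors known to induce it or its neighbours in the pathway, since the label's genes were high together in shared sequences. Ddit4 (ENSMUSG00000020108) lies on the minus strand at chr10:59949669-59951834 (GRCm38), Zbtb16 (ENSMUSG00000066687) on the minus strand at chr9:48654297-48836222, Plet1os (ENSMUSG00000101304) on the minus strand at chr9:50488795-50507823 and Pik3ip1 (ENSMUSG00000034614) on the plus strand at chr11:3330401-3342971. The RefSeq window from 250 bases before to 50 after its start, on GRCm38.p6 chr10:59951721-59952020, minus strand, reads 5′ to 3′ with the hypoxia core ACGTG in capitals:
Ddit4 promoter: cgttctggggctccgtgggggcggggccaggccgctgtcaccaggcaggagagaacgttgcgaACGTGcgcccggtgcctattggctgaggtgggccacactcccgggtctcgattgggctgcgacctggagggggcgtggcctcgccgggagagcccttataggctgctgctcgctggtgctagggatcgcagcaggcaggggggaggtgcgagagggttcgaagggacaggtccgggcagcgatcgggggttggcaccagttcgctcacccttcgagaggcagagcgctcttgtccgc
The match starts 187 bases before the start site. That core, searched on both strands, is in 19.6% of 32851 promoters. The glucocorticoid receptor half-site AGAACA (in 19.0% of promoters), the FoxO site TGTTTAC (3.65%) and the ATF4 site, TGATG then NAAT (0.965%), were not found in this window or in those of Pik3ip1 and Plet1os, which held no hypoxia core either. The Plet1os window, chr9:50504756-50505055, and the Pik3ip1 window, chr11:3330481-3330780, follow RefSeq starts and lie inside the gene positions given above. Bases before the starts of those gene positions were not searched for these genes. A match is a description of letters and no evidence of binding.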

How the data were processed

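The authors deposited 1 matrix of whole-number UMI counts per gene and barcode, made with Cell Ranger 3.1 on mm10 per the labels (Cell Ranger 3.1.0 in the matrix header), pooling 6 libraries. Seurat 3.1.5, also in the submitters' processing notes, made nothing used here. Reads were not realigned. UMIs of each group were summed and expressed as CPM. A gene was called past 1.5-fold (low-UMI groups) or 2-fold (against deep barcodes) if it had 50 CPM or more in either group and one direction in every suffix with 20 or more barcodes of both groups. A gene under that minimum in 1 group could only be called higher in the other. Ratios carry exact conditional binomial intervals, levels exact Poisson ones. Doublets were not called. The study's barcode counts per library match the suffixes, but groups were taken from the sample labels alone, so this match by value was not used. No test was run. Members and all 30 gene lists were chosen with earlier results of these data known, and the comparisons by number of libraries after the shared sequences were seen. Named genes were the label's and rule's genes, the 12 highest and lowest ratios past the rule in each main comparison, up to 4 abundant genes per list with any list gene past the rule, and the 10 most abundant. Total UMIs per suffix ran from 9745192 to 24393841. Promoters came from RefSeq (GRCm38.p6), where 3 of the 4 label genes matched, and gene positions and transcript lengths from GENCODE vM21 (GRCm38). Alternatives changed the Ddit4 minimum, UMI range, CPM minimum, weighting, thinning, denominator, microglial share, mitochondrial limit, Spp1 limit, suffixes and sequences. Some named genes are not reported here. The functions were tested on simulated data. Python 3.11.15, numpy 2.4.6, scipy 1.17.1 and pandas 2.3.3 were used.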

Additional observations from a re-analysis of the deposited data

How the results depend on the processing

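The share of low-UMI microglial barcodes with Ddit4 was 12.1% with at least 2 Ddit4 UMIs required, 22.4% after thinning to 500 UMIs, 27.5% with suffixes weighted equally, and 28.1 to 30.2% over the settings that left out 1 suffix. Settings on shared sequences were chosen after seeing the data: sequences in 3 or more libraries gave 31.5%, sequences in 1 library 5.26%, and 1 barcode per sequence 30.1%. The last setting kept 1 barcode per sequence within each group, so a sequence in both groups stayed on both sides. The 4 genes higher in members than in Ddit4-negative barcodes became 19 with 2 Ddit4 UMIs, 20 at 500 to 750 UMIs, 15 at over 750 UMIs, 13 with suffixes weighted equally, 24 at a 20 CPM minimum, 0 at 100 CPM, 7 after thinning and 7 with 1 barcode per sequence (5 to 15 leaving out 1 suffix). The 12 lower genes became 41 with 2 Ddit4 UMIs, 21 at over 750 UMIs, 37 at 20 CPM, 5 at 100 CPM, 4 with shared sequences alone and 21 with 1 barcode per sequence (9 to 21 leaving out 1 suffix). The extremes came without suffix 1 (10 and 21) and without suffix 5 (15 higher).

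Against deep barcodes the 121 higher and 147 lower genes became 188 and 246 at 20 CPM, 93 lower at 100 CPM, 13 and 36 with shared sequences alone, and 11 and 17 with the deep Spp1 at 0 as well. Leaving out 1 suffix gave 121 to 139 and 141 to 155. The sign of 3 named genes turned with shared sequences alone, Dnajb1 to a log2 ratio of 0.067, Ccl9 to -0.00191 and Apoe to -1.06 (-0.58 with the deep Spp1 at 0). Over all alternatives, 4247 of 5064 ratios of named genes moved by less than their counting interval and 813 by more. With shared sequences alone, 14 of 130 ratios against deep barcodes stayed within it, 113 moved and 3 reversed. A 20 CPM minimum tests more genes and a 100 CPM minimum fewer, and the cause of the other shifts was not tested. No paired analysis was made, because the labels and the matrix tie no suffix to a sample and the match by barcode counts was not used. Depth limits the members: 1 UMI of a median barcode is 1344 CPM, and suffix 3 held 81 members.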
